A study of Mus musculus with 7 samples.

Results

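The colony-stimulating factor genes described here were Csf1, Csf1r, Csf2ra, Csf2rb, Csf2rb2, Csf3r, Flt3 and Il3ra, measured in macrophages sorted from mouse brain. They were taken by gene symbol: 15 of the 45101 probe sets on the array carried exactly 1 symbol and that symbol was one of these, so that the 8 genes stood among 18193 genes with such a probe set. Csf1 had 4 probe sets, Csf1r had 3, Csf2ra and Csf2rb had 2 each and the others had 1. The GL261 samples were 4 macrophage preparations from the brains of C57/Bl6 mice that had been transplanted with GFP bone marrow and carried a GL261 tumour (written Gl261 in the sample labels), a mouse glioma cell line injected into the brain, for 21 days. The normal brain samples were 3 macrophage preparations from C57/Bl6 mice 8 weeks old. No age is recorded here for the GL261 mice, so a difference in age cannot be told apart from an effect of the tumour. The labels give 1 protocol for all samples: papain digestion, then isolation by GFP and by the macrophage surface antigen that Adgre1 encodes. Whether the normal brain mice carried GFP marrow, and so how GFP was used in sorting them, is not given in the sources used here, so an effect of the tumour and a difference in the origin of the sorted macrophages cannot be told apart. In bulk samples such as these, fewer cells of a type and less RNA per cell cannot be told apart either. Nothing says that the arrays came from separate mice, and the p-values measure only the spread between these arrays.

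Colony-stimulating factors are secreted proteins that control the survival, growth and differentiation of myeloid cells. CSF1 acts through the receptor tyrosine kinase CSF1R, on which microglia and most tissue macrophages depend, and IL-34 is another ligand of the same receptor. FLT3 is a kinase receptor of the same family, known from blood progenitors and dendritic cells. GM-CSF, IL-3 and IL-5 act through receptors made of a specific alpha chain and a shared beta chain without enzyme activity, which signals through JAK2 and STAT5. Csf2ra and Il3ra encode alpha chains for GM-CSF and IL-3, Csf2rb the shared beta chain, and Csf2rb2 a beta chain of the mouse that serves IL-3. Csf3r encodes the G-CSF receptor, best known from neutrophils.

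The promoters of the 2 genes that passed the test, Csf2rb2 and Flt3, are shown because their values moved in opposite directions, and that of Csf2ra because it holds 2 adjacent matches of a motif of PU.1, a transcription factor of myeloid cells. Each run is the 250 bases before the gene's start in RefSeq (GRCm38.p6), read 5′ to 3′ on the strand of the gene, and capitals mark matches on either strand to GAGGAA (PU.1 type), TTNCNNAA (C/EBP type) or TTCNNNGAA (STAT type), whose matches may overlap.
Csf2rb2: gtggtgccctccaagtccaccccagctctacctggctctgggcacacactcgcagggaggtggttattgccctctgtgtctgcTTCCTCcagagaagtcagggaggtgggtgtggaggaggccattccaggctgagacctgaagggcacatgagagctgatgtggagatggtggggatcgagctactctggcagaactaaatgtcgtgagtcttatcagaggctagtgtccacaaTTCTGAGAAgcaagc
Flt3: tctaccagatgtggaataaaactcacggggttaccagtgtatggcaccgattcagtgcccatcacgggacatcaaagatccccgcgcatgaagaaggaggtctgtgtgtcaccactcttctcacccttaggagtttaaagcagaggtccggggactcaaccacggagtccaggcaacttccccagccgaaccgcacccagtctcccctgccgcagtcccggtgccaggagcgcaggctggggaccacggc
Csf2ra: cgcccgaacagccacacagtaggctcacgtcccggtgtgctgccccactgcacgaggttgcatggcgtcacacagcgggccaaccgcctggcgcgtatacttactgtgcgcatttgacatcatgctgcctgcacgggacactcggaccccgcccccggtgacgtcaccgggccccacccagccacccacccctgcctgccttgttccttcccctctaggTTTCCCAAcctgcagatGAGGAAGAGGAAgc
The windows lie at chr15:78305722-78305971, minus strand, for Csf2rb2, at chr5:147400490-147400739, minus strand, for Flt3 and at chr19:61228419-61228668, minus strand, for Csf2ra. The Csf2rb2 window held a GAGGAA match that begins 167 bases before the start and a TTCNNNGAA match that begins 15 bases before it. In the Csf2ra window GAGGAA matches began 14 and 8 bases before the start and a TTNCNNAA match 31 bases before it. None of the 3 motifs matched in the Flt3 window. Over the 6 of the 8 genes whose promoter was matched, GAGGAA was present in 3, TTNCNNAA in 2 and TTCNNNGAA in 1. Csf1r and Csf2rb were not among these 6. Among all 32851 promoter windows the shares with a match were 23.3%, 36.8% and 7.0%.

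The arrays gave a MAS5 signal, a linear intensity, per probe set, and differences were tested on log2(signal + 6) with limma over all 12125 genes that passed a filter on low values, each gene taking its brightest probe set. The limma p-values were adjusted by Benjamini-Hochberg, and an adjusted p under 0.05 counted as a call. The sort marker gene Adgre1 had signals of 5965 to 6716 in the GL261 preparations and 7395 to 8758 in normal brain (adjusted p = 0.0814, limma). Of all genes tested, 10.1% were called, 5.92% higher and 4.2% lower in GL261. RNA quality differed between the groups by the Gapdh control probe sets, whose 3′ over 5′ signal ratio was 1.75 ± 0.127 in GL261 and 2.41 ± 0.0243 in normal brain (SD, n = 4 and n = 3, two-sided exact permutation p = 0.0286, the smallest that the 35 splits allow). Its part in the results below was not tested.

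All 8 genes passed the filter, and all were above the background of the arrays in every preparation by their brightest probe set. Of the 8 genes, 1 was called higher in GL261 (Csf2rb2) and 1 lower (Flt3). With all probe sets tested one by one, 3 of the 15 were called higher and 1 lower, and of the 27022 probe sets tested 5.45% were called, 2.98% higher and 2.47% lower. Groups without overlap were seen for 3 of the 8 genes, 2 higher and 1 lower in GL261, against 23.4% of all genes tested (13.1% higher and 10.4% lower). The same was seen for 8 of the 15 probe sets, 5 higher and 3 lower, against 20.3% of all probe sets tested (10.8% higher and 9.45% lower). Probe sets of the same gene were read on the same arrays and are no replicates of each other. The median log2 fold change of the 8 genes was 0.34 and that of all genes tested was 0.04.

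**Figure D1:**
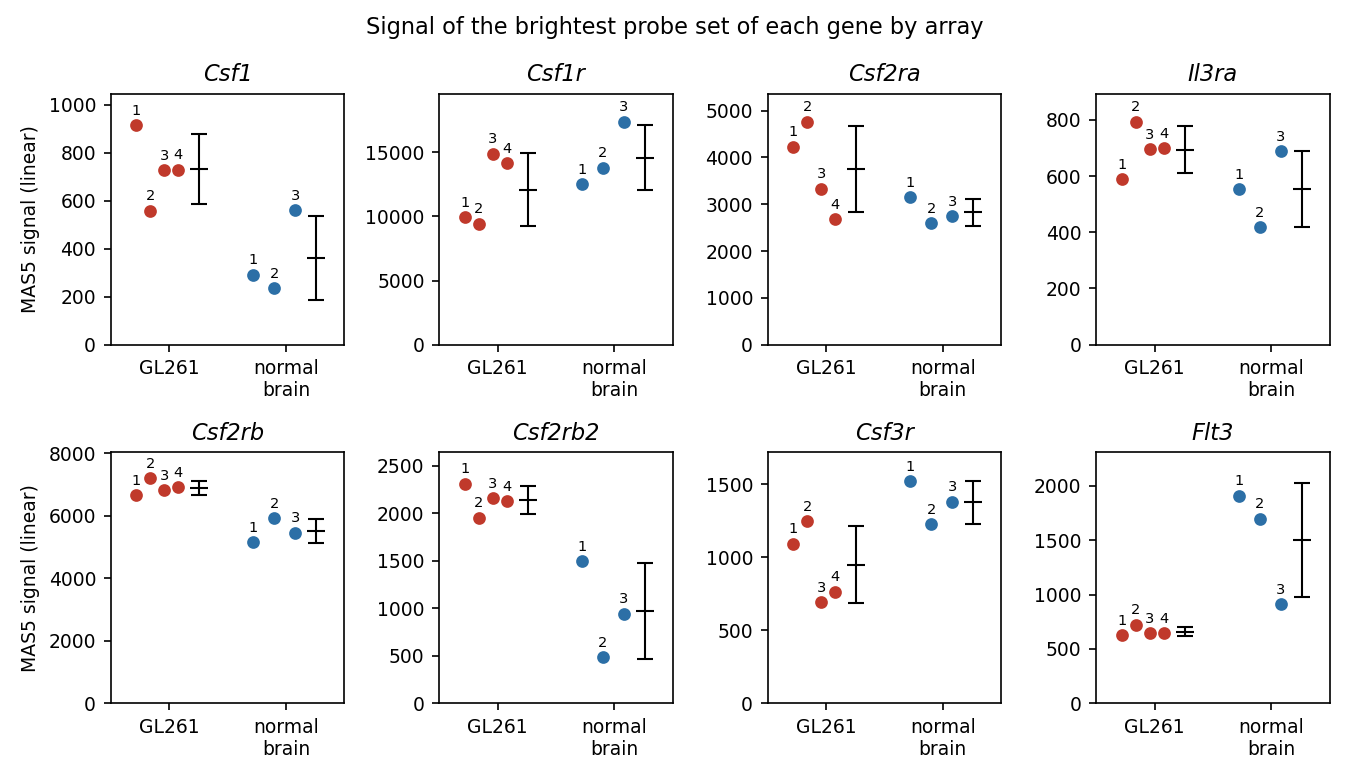
MAS5 signal (linear) of the brightest probe set of each gene in the 4 GL261 arrays and the 3 normal brain arrays. Points are arrays, marked by replicate number, and the bar beside each group is the mean ± SD. Csf2rb2 and Csf2rb are higher on every GL261 array and Flt3 is lower on every GL261 array, while the other 5 genes overlap.

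Csf1, the ligand, had higher mean values in GL261 by all 4 of its probe sets, and only the dimmest, by mean log2 value, was called. The brightest probe set had signals of 915, 558, 728 and 729 in GL261 replicates 1 to 4 and of 291, 234 and 560.3 in normal brain replicates 1 to 3. The groups touch only through GL261 replicate 2 and normal brain replicate 3. Its log2 level averaged 9.51 ± 0.29 in GL261 and 8.42 ± 0.64 in normal brain (SD, n = 4 and n = 3), and the log2 fold change of 1.08 (SE 0.34) missed the threshold (adjusted p = 0.0645, limma). Without normal brain replicate 3 it was 1.44 and called (adjusted p = 0.0194). With all arrays kept it was also called under array quality weights (1.17, adjusted p = 0.0477) and by the mean of the 4 probe sets (1.69, adjusted p = 0.0215), and in none of the other 16 settings.

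The other Csf1 probe sets were weaker. The second brightest had signals of 298, 208, 176 and 192 in GL261 and of 123, 66.6 and 123 in normal brain, without overlap, and its log2 fold change of 1.05 was not called (adjusted p = 0.206, limma). The dimmest had 78.2, 126, 65.8 and 182 in GL261 and 14.1, 8.12 and 4.67 in normal brain. All 3 normal brain values were at or under the background of their arrays, taken as the 95th percentile of 27 unspiked control probe sets (signals of 12.4 to 20.1 over the 7 arrays). By this probe set Csf1 was at least 4.65-fold higher in GL261, a bound that sets the GL261 mean against the background and leaves out the spread between arrays (adjusted p = 0.0129, limma). It was called in each of the 7 fits without 1 array, but its identifier ends in _x_at, the array's mark for probes that may also bind other transcripts. The remaining probe set had 59.95, 109, 31.9 and 153 in GL261 and 15.3, 9.17 and 46.5 in normal brain, where only the last value exceeded background, and was not called (log2 fold change 1.68, adjusted p = 0.163, limma).

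Genes of glioma-type cells were also brighter in GL261. The summed signal of 7 oligodendrocyte precursor and glioma-type genes was 863 to 1565 in GL261 and 197 to 517 in normal brain, and 3 of its 6 tested genes were called higher, among them the glial factor gene Sox10 (adjusted p = 0.000551, limma). Sox10 had signals of 372, 648, 330.3 and 385 in GL261 and of 24.4, 0.900 and 2.03 in normal brain, where 1 of the 3 arrays was above background. The size of its log2 fold change therefore depended on the pseudocount (5.16 as reported, 2.85 with a pseudocount of 58 and 6.32 with 1). With the filter at percentile 60, 0 genes of this list were called. Sox10 and Olig2, another of its called genes, did not pass that filter and were not tested there. Both were called in all 18 alternative settings that tested them. For 7 astrocyte genes the summed signal was 1751 to 3378 in GL261 and 1284 to 3701 in normal brain, with no gene called (1 was higher at an unadjusted p under 0.05). None of either list was at background on all 7 arrays. The part of these cells in the Csf1 values was not tested.

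Csf1r, the CSF1 receptor, was among the brighter genes of every preparation and did not pass the test by any of its 3 probe sets, all of which had lower mean values in GL261. The brightest had signals of 9955.5, 9415, 14872 and 14144 in GL261 and of 12502, 13812 and 17396 in normal brain. GL261 replicates 1 and 2 were the lowest of the 7 arrays, and replicates 3 and 4 lay among the normal brain values. The log2 levels were 13.53 ± 0.34 in GL261 and 13.82 ± 0.24 in normal brain (SD, n = 4 and n = 3), with a log2 fold change of -0.28 (95% confidence interval -0.71 to 0.15, adjusted p = 0.394, limma). This interval holds a fall as well as no change, and the difference was not detectable with these arrays.

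The other 2 Csf1r probe sets kept the groups apart. The second brightest had signals of 9326, 8704, 10476 and 12693 in GL261, all below the 13600, 13899 and 17243 of normal brain (log2 fold change -0.54, adjusted p = 0.0781, limma). The dimmest had 6376, 5050.0, 5844 and 6095 in GL261, below the 7850.5, 6937 and 6922 of normal brain (log2 fold change -0.31, adjusted p = 0.222, limma). Neither was called, and with the replicate number as a block the second brightest was (-0.65, adjusted p = 0.00856). GL261 replicate 4 has no normal brain array of its number, so it does not enter that fold change. Without this replicate and with no block the second brightest was not called (-0.65, adjusted p = 0.0573, limma). Microglia and border-associated macrophages depend on this receptor, and their genes moved in the same direction: 7 of 9 tested microglia genes were called lower in GL261, with a summed signal of 22861 to 29465 in GL261 and 42015 to 49687 in normal brain over 11 genes. For 9 border-associated macrophage genes, 7 of them called lower, the sum was 27277 to 32173 in GL261 and 42605 to 48016 in normal brain. These counts were 4 to 6 and 3 to 5 in the fits without 1 array, and 1 and 2 when the variances did not follow the signal. No gene of either list was at background on all arrays, and their part in the Csf1r values was not tested.

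The signal of the brightest Csf1r probe set went with a technical measure of the arrays. The mean log2 level of 18 spiked hybridisation control probe sets was 12.33, 12.20, 12.90 and 12.85 in GL261 replicates 1 to 4 and 12.40, 12.81 and 13.20 in normal brain replicates 1 to 3. The 7 arrays stood in the same order by this level as by Csf1r, which held for 0.132% of all genes tested and for 4.81% of the 291 genes with a mean log2 value of 13 or more. The control level was also used as a covariate, an alternative chosen after the data were seen. In the test of all probe sets the log2 fold change of this probe set was then -0.10 (adjusted p = 0.509, limma). That of the second brightest was -0.42 (adjusted p = 0.0242). Under quantile normalization the first was -0.01. None of the other 14 probe sets stood in that order.

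**Figure D2:**
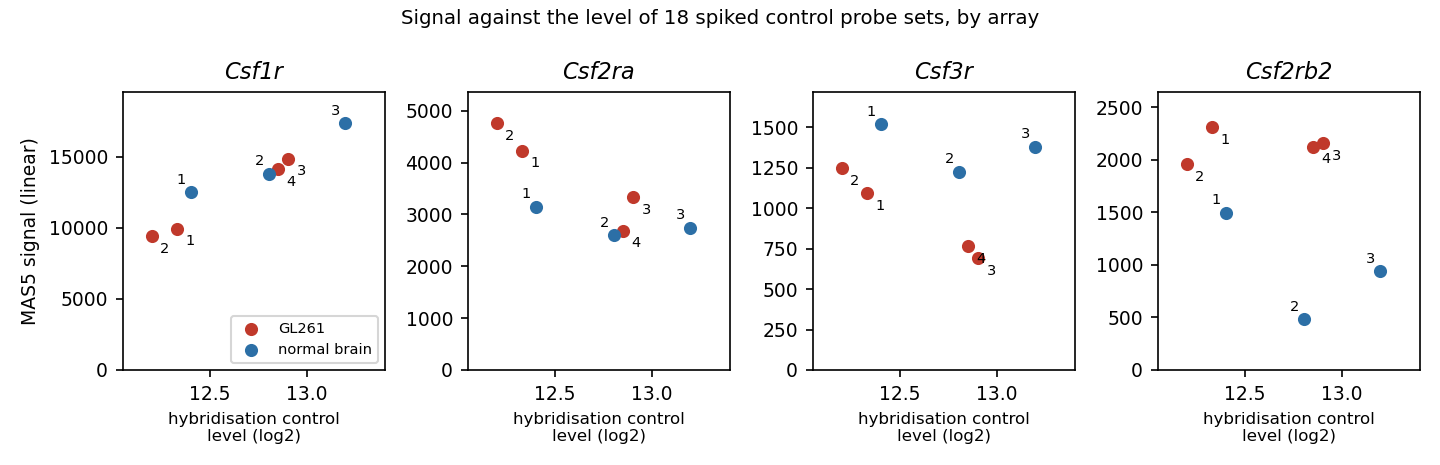
MAS5 signal (linear) of the brightest probe set of Csf1r, Csf2ra, Csf3r and Csf2rb2 against the mean log2 level of 18 spiked hybridisation control probe sets. Each point is 1 array, marked by replicate number, in red for GL261 and blue for normal brain. For Csf1r the arrays of both groups rise together, from 9415 in GL261 replicate 2 to 17396 in normal brain replicate 3, while for Csf2rb2 the groups stay apart along the whole range.

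The GM-CSF receptor alpha chain gene Csf2ra gave opposite directions by its 2 probe sets, and neither was called. The brighter one had signals of 4228.5, 4766, 3329 and 2684 in GL261 and of 3147, 2594 and 2745 in normal brain (log2 fold change 0.38, SE 0.20, adjusted p = 0.247, limma). The other had 757, 1365, 767 and 869 in GL261 and 1541, 1638.5 and 755 in normal brain (log2 fold change -0.44, adjusted p = 0.437, limma). The groups overlapped in both, and the mean of the 2 probe sets gave -0.03. No direction can be given for Csf2ra.

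Il3ra, the alpha chain for IL-3, had signals of 589, 794, 695 and 700.1 in GL261 and of 553, 418 and 689 in normal brain. Its groups overlapped, and the log2 fold change of 0.35 (95% confidence interval -0.23 to 0.92) was not called (adjusted p = 0.441, limma). Genes of basophils and mast cells, which carry this receptor, had a summed signal of 1154 to 2628 in GL261 and 1928 to 2970.1 in normal brain over 9 genes, with 0 of 8 tested genes called (4 were lower at an unadjusted p under 0.05). The part of these cells in the Il3ra values was not tested.

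Csf2rb2, the IL-3 beta chain gene, rose in GL261. Its signals were 2311, 1953.5, 2155 and 2124 in GL261 replicates 1 to 4 and 1494, 482 and 941 in normal brain replicates 1 to 3. The GL261 arrays lay close together, whereas the normal brain arrays spanned a wide range, all of it below GL261. The log2 level was 11.06 ± 0.10 in GL261 and 9.79 ± 0.81 in normal brain (SD, n = 4 and n = 3), and Csf2rb2 was 2.42-fold higher (log2 fold change 1.27, SE 0.30, adjusted p = 0.0214, limma). Without normal brain replicate 2 the log2 fold change was 0.84 and still called, and the call was lost without GL261 replicate 1 (adjusted p = 0.0577), 3 (0.0632) or 4 (0.0548). It was lost as well when the variances did not follow the signal (adjusted p = 0.0926). In the test of all probe sets Csf2rb2 was called with all arrays (adjusted p = 0.0370, limma) and in 1 of the 7 fits without 1 array.

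The shared beta chain gene Csf2rb, which is separated from Csf2rb2 on chromosome 15 by 1 annotated gene (Mir7676-1), was higher on every GL261 array by both of its probe sets. The brighter one had signals of 6668, 7209, 6829 and 6910 in GL261 and of 5164, 5927 and 5454 in normal brain. The log2 fold change was 0.33 (SE 0.13), and it was not called (adjusted p = 0.129, limma). The other had 3730.3, 4548, 3109 and 2747 in GL261 and 2216, 1539 and 1188 in normal brain. It was called higher in the test of all probe sets, with a log2 fold change of 1.12 (adjusted p = 0.0215, limma), and lost the call without GL261 replicate 1 (adjusted p = 0.0613) or 3 (0.0542) or normal brain replicate 2 (0.0624) or 3 (0.0641).

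Csf2rb and Csf2rb2 are close copies, and 1 probe set carries both symbols and was left out by the rule on symbols. It had signals of 1049, 1319, 956 and 955 in GL261 and of 695, 609 and 450.03 in normal brain, again without overlap (log2 fold change 0.87, adjusted p = 0.0547, limma). How far the probes of one of these genes bind RNA of the other is not given in the sources used here, so the share of each gene in these increases is uncertain. The mean of the 2 Csf2rb probe sets had a log2 fold change of 0.72 and was called (adjusted p = 0.0203). Monocyte genes, 3 of 7 called higher and 1 lower in GL261 (2 higher and 0 lower when the variances did not follow the signal), had a summed signal of 22345 to 32768 in GL261 and 20972 to 24339 in normal brain, and their part in the beta chain values was not tested.

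**Figure D3:**
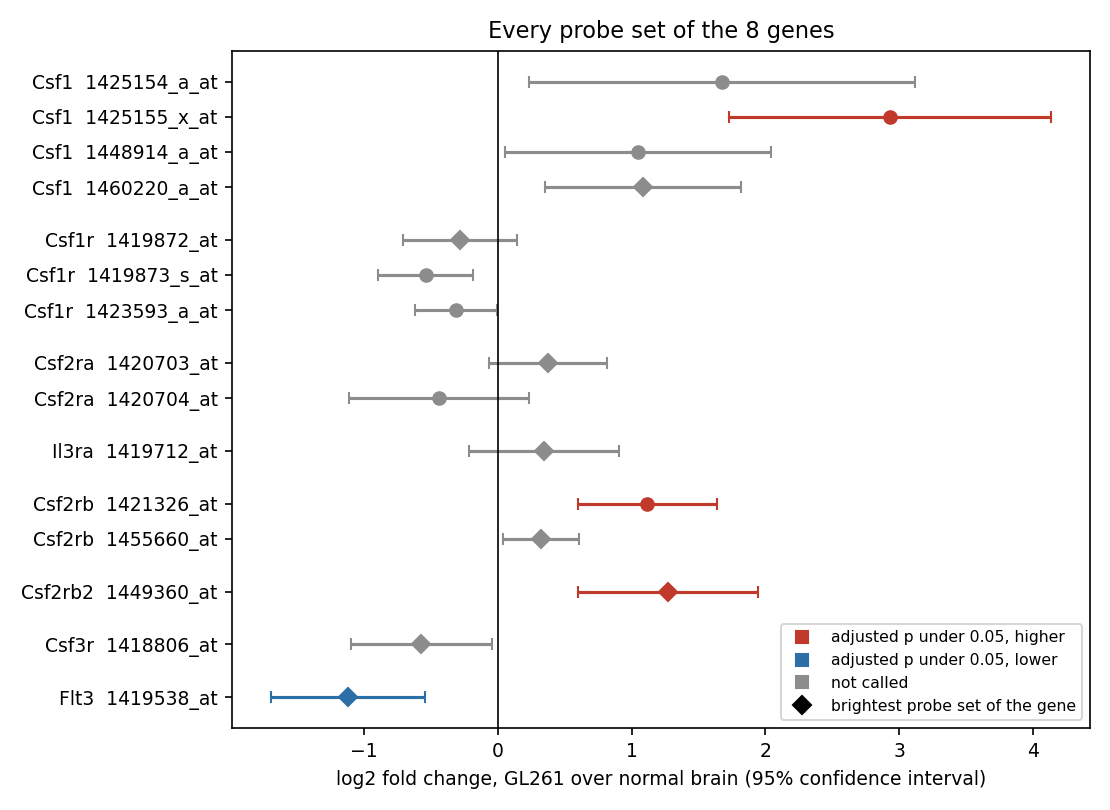
Log2 fold change of GL261 over normal brain with its 95% confidence interval for each of the 15 probe sets, from the test of all probe sets. Diamonds mark the brightest probe set of a gene, red a call higher and blue a call lower. All 4 probe sets of Csf1 and both of Csf2rb lie above 0, all 3 of Csf1r below 0, and the 2 of Csf2ra lie on opposite sides.

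Csf3r, the G-CSF receptor gene, had signals of 1092, 1246, 691 and 763 in GL261 and of 1521, 1227 and 1380.1 in normal brain. GL261 replicate 2 just exceeded normal brain replicate 2, and the other 3 GL261 arrays were lower than every normal brain array. The log2 fold change was -0.57 (SE 0.24, 95% confidence interval -1.09 to -0.06) and was not called (adjusted p = 0.150, limma). Neutrophil genes moved alongside: the summed signal of 10 of them was 16842 to 23288 in GL261 and 41031 to 51406 in normal brain. S100a8 and S100a9 made up most of the sum on each array. Their signals were 14621 and 19627 in normal brain replicate 1 and 6989 and 9176 in GL261 replicate 1. Of 9 tested genes 6 were called lower and 0 higher (0 at an unadjusted p under 0.05). Mmp8, Mmp9 and Cxcr2 had log2 fold changes of -0.16, -1.31 and 0.68 and were not called. The count lower was 3 when the variances did not follow the signal. Among the genes called lower Ngp, a neutrophil granule gene, fell by 4.66 on the log2 scale. Mpo, myeloperoxidase, was also called lower, with signals of 48.0, 15.1, 4.51 and 1.86 in GL261 and of 272, 305 and 176 in normal brain. It was above background on 2 of the 4 GL261 arrays, and its log2 fold change depended on the pseudocount (-3.84 as reported, -2.05 with 58 and -4.54 with 1). None of the neutrophil genes was at background on all 7 arrays, and their part in the Csf3r values was not tested.

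Flt3 fell in GL261. Its signals were 624, 721, 644 and 645 in GL261 replicates 1 to 4 and 1908, 1697 and 910.5 in normal brain replicates 1 to 3. The GL261 arrays again lay close together, and normal brain replicate 3 was the normal brain array nearest to them. The log2 level was 9.37 ± 0.09 in GL261 and 10.49 ± 0.57 in normal brain (SD, n = 4 and n = 3), and the log2 fold change of Flt3 was -1.12 (SE 0.26, adjusted p = 0.0205, limma). The direction was the same in every fit without 1 array (-1.44 to -0.91), while the call was lost without GL261 replicate 1 (adjusted p = 0.0520), 3 (0.0591) or 4 (0.0511) or normal brain replicate 1 (0.0693) or 2 (0.0628).

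Of the cells known for Flt3, dendritic cells and blood progenitors had lower marker sums in GL261, and plasmacytoid dendritic cells had overlapping ones. Over 9 dendritic cell genes the summed signal was 13716 to 20919 in GL261 and 29679 to 30438 in normal brain, and 2 of 9 were called lower: the lectin gene Clec10a fell by 1.40 on the log2 scale and the peptidase gene Dpp4 fell by 0.87. In 4 of the 7 fits without 1 array Dpp4 was no longer called. The count lower was 4 under the replicate block and 0 when the variances did not follow the signal, where Clec10a had an adjusted p of 0.0572 and Dpp4 one of 0.102 (limma). The summed signal of 6 blood progenitor genes was 1364 to 2243 in GL261 and 3055 to 3648 in normal brain. Sox4 made up most of the sum on each array, with 1054 in GL261 replicate 1 and 2126 in normal brain replicate 1. It was the only 1 of 3 tested genes that was called (log2 fold change -0.97). Its call was lost when the variances did not follow the signal (adjusted p = 0.0573) and by the mean of its probe sets (adjusted p = 0.0871). For 8 plasmacytoid dendritic cell genes the sums overlapped, at 15767 to 19672 in GL261 and 16664 to 20701 in normal brain, with the interferon factor gene Irf7 called higher (1.38) and Ly6d called lower (-1.49). No dendritic cell gene was at background on all arrays, and the part of these cells in the Flt3 values was not tested.

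Among the other ligands and receptors of the family 3 genes were tested and 0 called by limma (1 was lower at an unadjusted p under 0.05). Csf2, which encodes GM-CSF, had signals of 35.4, 155, 50.8 and 168 in GL261 and of 359, 119 and 204 in normal brain, and its log2 fold change of -1.24 did not pass (adjusted p = 0.242, limma). Kitl, the ligand of the related receptor KIT, had signals of 77.9, 156, 161 and 75.7 in GL261 and of 404, 185 and 739 in normal brain, without overlap. It had a log2 fold change of -1.73 that missed the threshold (adjusted p = 0.0636) and was called without normal brain replicate 2 (-2.24, adjusted p = 0.0285). Il34 did not pass the filter on low values: its signals were 30.8, 45.7, 23.7 and 22.1 in GL261, each above the background of its array, and 22.4, 7.79 and 9.46 in normal brain, of which 1 was above background. Csf3, which encodes G-CSF, did not pass the filter either and was above background on 1 of the 4 GL261 arrays and on 0 normal brain arrays. Il3 was at background on all 7 arrays. Flt3l had no probe set with 1 symbol.

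A minority of the genes that carry the signal of these receptors passed the test. Of 18 tested genes of CSF1 receptor signalling 3 were called higher and 0 lower (4 higher and 1 lower at an unadjusted p under 0.05), with a median log2 fold change of 0.18. Pik3r1, a regulatory subunit of phosphoinositide 3-kinase, rose by 0.79, and the Src family kinase genes Fgr and Fyn rose by 0.76 and 0.67. The count fell when any of several arrays was left out. It was 1 without GL261 replicate 1 or 2 or normal brain replicate 2, and 0 without GL261 replicate 3 or 4. Under median centring, or when the variances did not follow the signal, it was also 0. Of the 7 fits without 1 array Fgr was not called in 6, Fyn in 5 and Pik3r1 in 2.

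Of 19 tested genes of signalling by the beta chain and the G-CSF receptor 3 were called higher and 0 lower (6 higher and 1 lower at an unadjusted p under 0.05), with a median of 0.17. Cish, a feedback inhibitor that STAT5 induces, had signals of 852, 871, 2033 and 1125 in GL261 and of 469, 435 and 562 in normal brain, without overlap, and rose by 1.22 (adjusted p = 0.0275, limma). Ccnd2, cyclin D2, had 2996, 2721, 3608 and 3612 in GL261 and 1868, 1727 and 1716 in normal brain and rose by 0.86 (adjusted p = 0.00681). Irs2, an adaptor of cytokine and insulin signalling, rose by 0.80 (adjusted p = 0.0370). The call of Ccnd2 held in all 7 fits without 1 array and was lost when the variances did not follow the signal (adjusted p = 0.0508), while those of Cish and Irs2 were lost in 4 and 6 of them, and the count was 1 without GL261 replicate 3 or 4 or normal brain replicate 2. It was 5 with the filter at percentile 60 and 0 when the variances did not follow the signal. The kinase and STAT genes Jak2, Tyk2, Stat5a and Stat5b had log2 fold changes of -0.10, -0.24, -0.17 and -0.37, none called. Those of Jak1 and Stat3 were 0.27 and 0.57 and were not called either. Stat3 was without overlap and higher in GL261 (adjusted p = 0.0594, limma).

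Of 8 tested transcription factor genes that act on the receptor genes 1 was called higher and 1 lower, with a median of 0.30. Cebpb, a C/EBP factor of activated macrophages, rose by 0.99 (adjusted p = 0.0120, limma), and lost its call under median centring (adjusted p = 0.0586) and when the variances did not follow the signal (0.0742). The count higher was 0 in both of these settings and 2 without GL261 replicate 2. Maf, a factor of resident macrophages, had signals of 5412, 5624, 5112 and 6490.0 in GL261 and of 9798, 10949 and 13098 in normal brain, without overlap, and fell by 0.99 (adjusted p = 0.00264). Spi1, which encodes PU.1, had a log2 fold change of 0.39 and was not called (adjusted p = 0.282).

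Genes linked to GM-CSF in myeloid cells moved both ways: of 10 tested 2 were called higher and 1 lower, with a median of -0.28. The integrin gene Itgax (CD11c) had signals of 7762, 6629, 9522 and 8936 in GL261 and of 4016, 3562 and 3577 in normal brain and rose by 1.13 (adjusted p = 0.00146, limma). Chil3, a chitinase-like protein of alternatively activated mouse macrophages, had 4657, 5876, 3917 and 3898.5 in GL261 and 2500.0, 1932 and 1818 in normal brain and rose by 1.13 (adjusted p = 0.00382). The chemokine gene Ccl22 had 426, 812, 1407 and 1370 in GL261 and 3648, 2890.5 and 3414 in normal brain and fell by 1.86 (adjusted p = 0.00782). The calls of Itgax and Chil3 held in all 19 alternative settings. That of Ccl22 was lost when the variances did not follow the signal (adjusted p = 0.0601) and without normal brain replicate 1 and GL261 replicate 2 together (0.0520). The count lower was 5 under the replicate block, 2 with a pseudocount of 58 or without GL261 replicate 1, and 0 in the 2 settings where Ccl22 was not called.

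**Figure D4:**
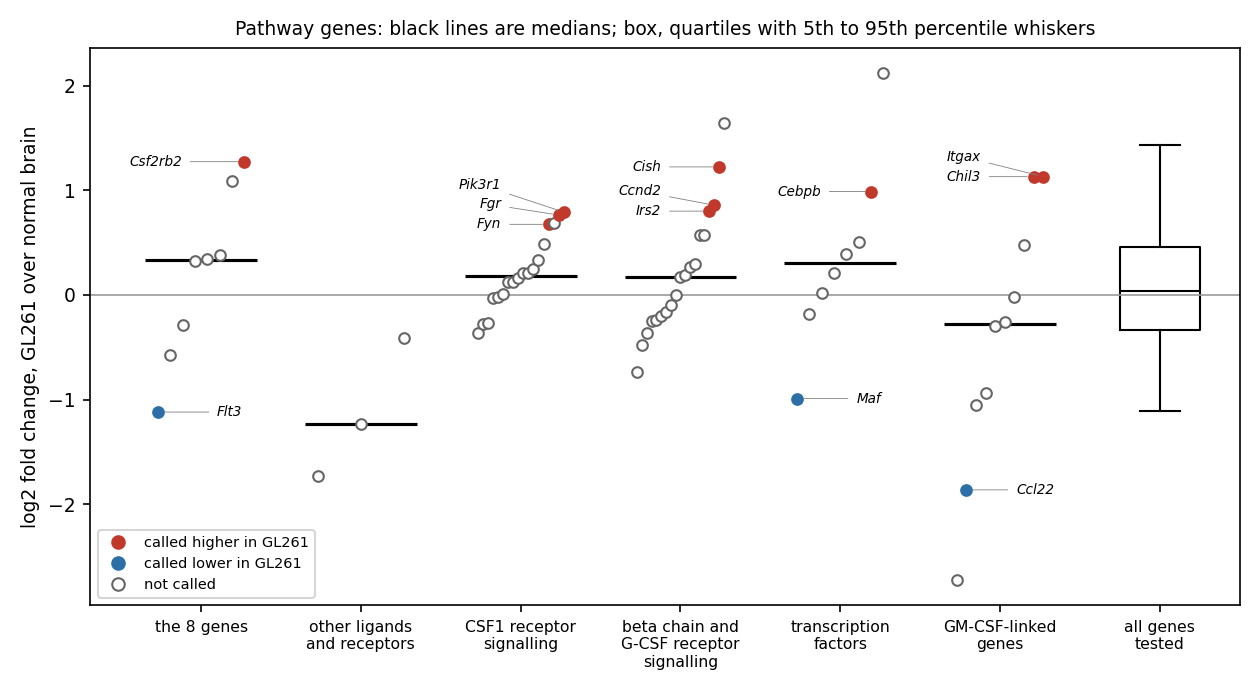
Log2 fold change of GL261 over normal brain for each tested gene of 6 lists, with black lines at the medians, and for all 12125 genes tested as a box of quartiles with whiskers at the 5th and 95th percentile. Filled points passed the test and are named. Most genes of both signalling lists lie within the quartiles of all genes, with 3 called higher in each and 0 lower.

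For each of the 8 genes the 2 other tested genes with the most similar log2 profile over the 7 arrays were found by Pearson correlation, as a description that includes the difference between groups. The values below are the highest over all genes tested on 7 arrays and do not by themselves show a link. Csf2rb2 was most like Dhrs1 (r = 0.997) and Stamos (r = 0.995), and Flt3 most like Wfdc1 (r = 0.989) and Kif21b (r = 0.972). Csf1r was most like the ribosomal protein gene Rpl22 (r = 0.996) and the immediate early gene Fos (r = 0.994). For Csf1 they were Shq1 (r = 0.984) and Nudcd2 (r = 0.983), for Csf2rb Olig1 (r = 0.987) and Rab20 (r = 0.984), and for Csf3r Elmod2 (r = 0.988) and Tpcn1 (r = 0.986). Csf2ra was most like Apln (r = 0.972) and the costimulatory gene Cd86 (r = 0.968), and Il3ra most like Tnks (r = 0.972) and BC052688 (r = 0.970).

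The direction of the fold change was kept by 7 of the 8 genes in all 19 alternative settings, and for Csf2ra it turned in 1, while the calls moved. The filter and variance settings leave each fold change as it was, so they could not turn a direction. The replicate block gives the fold changes of the fit without GL261 replicate 4 and adds no separate check of direction. Csf2rb2 was called in 15 of the 19 settings and Flt3 in 12. Csf1 was called in 3 and Csf2rb in 2, and Csf1r, Csf2ra, Csf3r and Il3ra in 0. These counts are from the test of genes. In the test of all probe sets the Csf2rb2 probe set was called in 8 of 18 settings and the Flt3 probe set in 9. Without normal brain replicate 1 and GL261 replicate 2 together, Csf2rb2 was the only 1 of the 8 genes called.

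**Figure D5:**
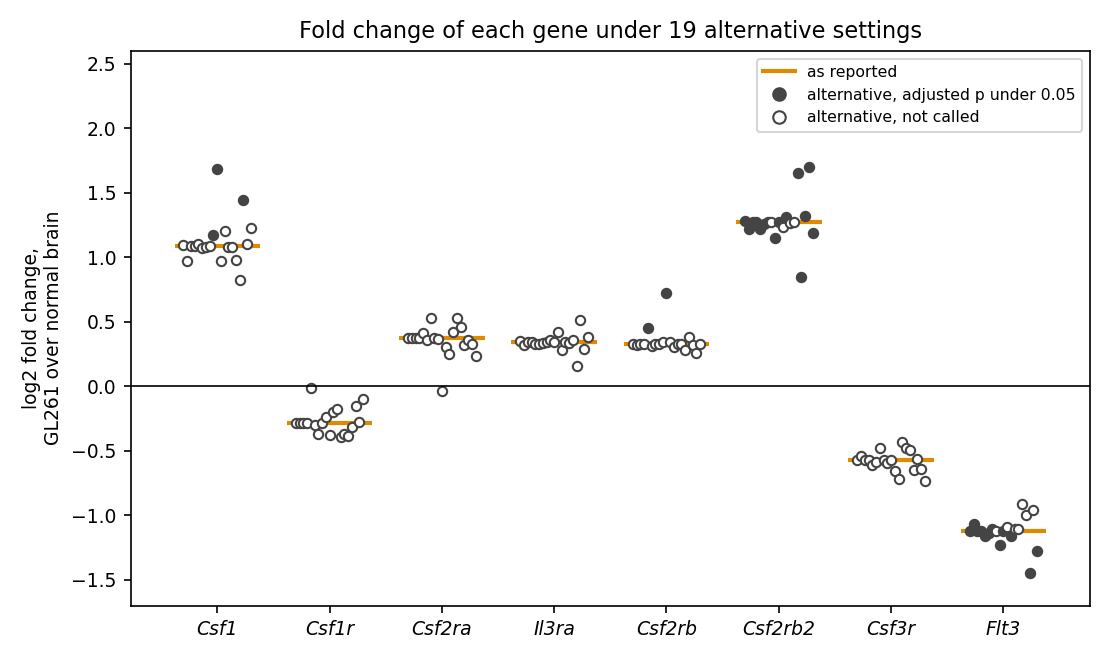
Log2 fold change of GL261 over normal brain for each gene as reported (orange line) and under 19 alternative settings (points, filled where the adjusted p was under 0.05). Csf2rb2 stays between 0.84 and 1.70 and Flt3 between -1.44 and -0.91, with filled and open points in both. Csf1r comes nearest to 0 at -0.01, and Csf2ra crosses it in 1 setting.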

How the data were processed

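RNA of sorted macrophages was measured on Affymetrix mouse arrays in 4 GL261 and 3 normal brain samples. The deposited values are linear signal intensities, which the authors made with MAS5, per the submitters' processing notes. Neither its version nor a genome build appears in the sources used here. The mean without the lowest and highest 2% was 500 on every array, so no further scaling was applied, and 0 columns belonged to no sample. The number of arrays limits the precision.

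Symbols came from the platform's probe table: 34945 probe sets had 1 symbol, 932 several and 9160 none, and 64 were controls. The scale was log2(signal + 6), with the 20th percentile of the values as pseudocount, so fold changes of dim genes are understated. Genes with a mean above 4.93, the 40th percentile of non-control probe sets, were tested, each by its brightest probe set (highest mean log2 value), with lmFit and eBayes (limma 3.58.1, R 4.3.3, variances that follow the signal, two-sided, Benjamini-Hochberg). Values per probe set are from the same fit on all 27022 probe sets above the filter. Unless stated, adjusted p-values of brightest probe sets are from the test of genes and those of other probe sets from this second fit. The procedure was tested on simulated data with independent noise and no array effects, which cannot show how such effects act on these arrays. Figures used matplotlib 3.10.9 in Python 3.11.15.

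Background was the 95th percentile of 27 unspiked Bacillus control probe sets on each array. Alternatives were another pseudocount (1 or 58), no filter or a filter at percentile 60, a replicate block, array quality weights, quantile normalization, median centring, variances independent of the signal, the mean over a gene's probe sets, leaving out each array, and leaving out 2 arrays together. The hybridisation covariate was added after the data were seen. Named were the 8 genes, Il34, Csf2, Csf3, Il3, Flt3l and Adgre1, up to 3 called genes per direction from each pathway list and up to 2 from marker lists, or the gene with the smallest p where none was called. Jak1, Jak2, Tyk2, Stat3, Stat5a, Stat5b, Spi1, S100a8, S100a9, Mmp8, Mmp9 and Cxcr2 were added after their values were seen. The genes and lists were chosen with earlier results of these data known.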

Additional observations from a re-analysis of the deposited data

How the results depend on the processing

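The counts of calls depended on the settings more than the directions did, though the filter and variance settings could not turn a direction. When the variances did not follow the signal, limma called 455 genes (282 higher, 173 lower), 0 of the 8 colony-stimulating factor genes (3 at an unadjusted p under 0.05), of which 0 higher and 0 lower, and 1 of their probe sets. Median centring gave 810 genes, 305 of them lower. The mean of a gene's probe sets gave 317 genes lower and called 4 of the 8 genes, 3 of them higher, and turned the log2 fold change of Csf2ra to -0.033. Quantile normalization and array quality weights each called 2 of the 8 genes higher. Without a filter 2 member probe sets were called. Without normal brain replicate 1 and GL261 replicate 2 together 327 genes were lower, 1 of the 8 genes was called and 0 lower. The causes of these changes were not tested. Leaving out 1 array at a time gave 534 to 1179 genes called (293 to 768 higher, 241 to 441 lower), 0 to 3 of the 8 genes (0 to 2 higher, 0 to 1 lower) and 1 to 3 of their probe sets. None of the 8 was called by limma without GL261 replicate 1, 3 or 4 (5, 4 and 5 at an unadjusted p under 0.05). Of 854 recomputed log2 fold changes of named genes and probe sets, 740 kept direction and call, 101 lost the call, 12 gained it and 1 turned.

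The replicate numbers were shared by the groups, but the labels name no shared source, and same-numbered arrays deviated from their group means with correlations of 0.08, -0.01 and 0.03, so the arrays were treated as unpaired. Of 6 arrays 3 correlated best with their own number, each having 3 or 4 arrays of the other group to match. No chance level was computed for this count. With the replicate block 1004 genes and 2 of the 8 genes were called.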

Other observations

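Other blood and vessel genes moved with the same comparison. Of 6 tested B and plasma cell genes 5 were called lower in GL261 by limma and 0 higher (0 at an unadjusted p under 0.05), with a median log2 fold change of -2.63. Of 7 endothelial genes 3 were called lower and 0 higher (1 at an unadjusted p under 0.05), with a median of -2.64. Of 9 T and NK cell genes 3 were called higher and 0 lower (0 at an unadjusted p under 0.05), with a median of 0.82. These counts were 5 in all 7 fits without 1 array for B and plasma cells, 2 to 4 for endothelial and 1 to 4 for T and NK cells. When the variances did not follow the signal they were 4, 0 and 1.

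In none of the 15 probe sets of the colony-stimulating factor genes did 1 GL261 array stand apart from the other 3 by Dixon's test. The largest gap was 0.772 of the group's range, for Flt3 in GL261 replicate 2. Dixon's test was not run on the normal brain arrays. For the called genes Csf2rb2 and Flt3 the spread was wider there. The SD of the log2 level of Csf2rb2 was 0.81 in normal brain and 0.10 in GL261, and that of Flt3 was 0.57 and 0.09. The test therefore does not show that the data are free of outlying arrays.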
